A study of Mus musculus with 2 samples.

Results

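Genes that mark macrophages, dendritic cells, endothelium or epithelium were examined in CH12.LX, an established line from a murine lymphoma of B cells. The 6 genes were Cd68, Batf3, Adgre1, Pecam1, Epcam and Zbtb46, out of 43346 genes in the tables. They were chosen by their measured TPM: each is used as a marker of a cell type other than the B cell, and each reached 1 TPM in both libraries. TPM is a level relative to all transcripts of the library, corrected for transcript length and depth. Because the members were selected on these levels, the levels are given as a description, and whether they are high was not tested. The ratio between the libraries took no part in the choice, beyond the threshold that both had to pass, and is compared further on.

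The study holds a single group. Total RNA was sequenced from the line, whose source is given as strain B10.H-2aH-4bp/Wts, labelled female and of unknown age, and no agent or allele is named. The 2 libraries are labelled biological replicates 1 and 2, and each has a biosample record of its own. The labels do not say how the cultures were grown, so the spread between the libraries may be partly technical. No contrast between conditions exists, and the only comparison between samples is library against library.

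As background, lineage markers are genes whose products are used to recognise a cell type, and few of them are made by that type alone. CD68 is a glycoprotein of lysosomes and endosomes and F4/80, the product of Adgre1, is an adhesion receptor of the cell surface, and both are classical macrophage markers. BATF3 and ZBTB46 are transcription factors of conventional dendritic cells. PECAM1 (CD31) joins endothelial cells to each other and is also carried by platelets and leukocytes, and EPCAM is an adhesion molecule of epithelia.

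Expected counts summed to 49278383 (replicate 1) and 55950529 (replicate 2). Protein-coding genes took 24.4% and 24.3% of TPM, so each of their levels would be 4.10 and 4.12 times as high if scaled to protein-coding genes only. At 1 TPM or more in both libraries stood 22.1% of all genes and 41.4% of 21474 protein-coding genes. The labelled cell type was checked against 12 B cell identity genes, of which 11 reached 1 TPM. Cd79b, which encodes a chain of the B cell receptor complex, led them at 123 ± 3.16 TPM (SD, n = 2), and Fcmr measured 0.11 TPM (replicate 1) and 0.05 TPM (replicate 2).

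The 6 genes spanned about an order of magnitude. Among protein-coding genes at 1 TPM or more in both libraries, the share at or below the mean of a member ran from 7.49% (Zbtb46) to 78.5% (Cd68). Cd68 and Batf3 were the highest, Adgre1 and Pecam1 lay in the middle, and Epcam and Zbtb46 were close to the threshold in one library each. In replicate 1 the order was Cd68, Batf3, Pecam1, Adgre1, Epcam and Zbtb46. In replicate 2 it was Cd68, Batf3, Adgre1, Pecam1, Zbtb46 and Epcam. The authors' deposited credibility bounds of TPM separated every pair of neighbours in these orders except Pecam1 and Adgre1 in replicate 1. Epcam and Zbtb46 changed places between the libraries with separate bounds in both.

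**Figure D1:**
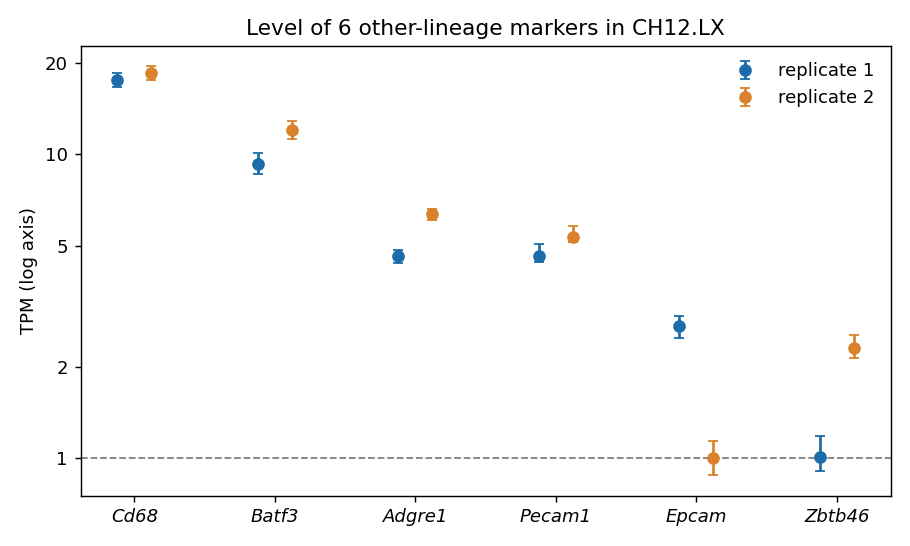
TPM (log axis) of the 6 genes in each library, with the deposited lower and upper credibility bounds as bars and a dashed line at 1 TPM. Cd68 sits at 17.6 and 18.6 TPM, while the bounds of Epcam in replicate 2 and of Zbtb46 in replicate 1 cross the line.

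Cd68, the lysosomal glycoprotein gene (ENSMUSG00000018774, chromosome 11, 69664213 to 69666153, minus strand), measured 17.6 TPM (replicate 1) and 18.6 TPM (replicate 2). The mean was 18.1 ± 0.679 TPM (SD, n = 2), higher than or equal to 91.1% of protein-coding genes. Of those at 1 TPM or more in both libraries, it was higher than or equal to 78.5%. The libraries were close, with deposited bounds of 16.7 to 18.5 TPM and 17.6 to 19.5 TPM that overlap. The counts behind these levels were 1990 and 2294. Nearly all of the signal was given to the coding form. Cd68-201, a protein-coding transcript of 978 coding bases, held 92.5% ± 0.686 of Cd68 TPM, and Cd68-203, a processed transcript with no coding region, held 7.76% and 6.55%. By expected counts the share of Cd68-201 was 96.6%. Eif4a1, a translation initiation helicase gene on the same strand, ends 783 bases upstream of Cd68 and measured 499 TPM (replicate 1) and 387 TPM (replicate 2).

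Adgre1, the F4/80 gene (ENSMUSG00000004730, chromosome 17, 57358691 to 57483527, plus strand), measured 4.63 TPM (replicate 1) and 6.38 TPM (replicate 2). The mean was 5.50 ± 1.24 TPM (SD, n = 2) over 1577 and 2363 counts. Replicate 2 was the higher library, and the bounds of 4.40 to 4.86 TPM and 6.10 to 6.62 TPM did not overlap. Both transcripts in the table are protein-coding. Adgre1-202 held 96.1% in replicate 1 and 89.2% in replicate 2, and Adgre1-201 held the rest. In the annotation these forms have the same coding sequence of 2793 bases, so the split between them does not change the encoded receptor.

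Markers that accompany Cd68 and Adgre1 in macrophages and monocytes were low. Of the 16 other genes of this list, 1 reached 1 TPM in both libraries and 12 were under 0.1 TPM in both, and the whole list had a median of 0.0125 TPM against 0.195 TPM for all protein-coding genes. The detected gene was Spi1, the transcription factor PU.1 of myeloid and B cells, at 5.74 and 6.17 TPM. Csf1r, the receptor for macrophage colony stimulating factor, was at 0.28 TPM in both libraries. Mertk, Cd14 and C1qb had 0 counts, which allows up to 0.00807, 0.0192 and 0.0292 TPM in replicate 1 and 0.00740, 0.0177 and 0.0269 TPM in replicate 2. These 16 genes summed to 6.34 and 6.82 TPM, most of it Spi1.

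Many lysosomal genes other than Cd68 were expressed. Of 17 other genes of lysosome membrane proteins, hydrolases and their regulators, 13 reached 1 TPM in both libraries, and the median with Cd68 was 10.5 TPM. Ctsz, a cathepsin, was at 102 and 99.5 TPM, Ctss, the cathepsin that trims the invariant chain of MHC class II, at 48.8 and 42.5 TPM, and Ctsd, another cathepsin, at 23.8 and 25.8 TPM. Lamp1, a major lysosomal membrane protein, was at 15.8 and 16.4 TPM, slightly under Cd68 in both libraries. The lowest were Ctsl, Cd63 and Lamp3, and Lamp3, a marker of mature dendritic cells, was at 0.01 and 0.02 TPM. Tfeb, a master regulator of lysosomal genes, was at 13.9 and 11.8 TPM.

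In the family of Adgre1, the adhesion G protein-coupled receptors, few other genes reached 1 TPM. Of 19 other such genes, 2 reached 1 TPM in both libraries, and the median with Adgre1 was 0.0075 TPM. Adgre5 (CD97), the leukocyte member of the same subfamily, was at 6.60 and 5.66 TPM, and Adgrl1, a latrophilin, at 3.01 and 3.28 TPM. Adgre1 was below Adgre5 in replicate 1 and above it in replicate 2. Adgre4, a myeloid relative, had 0 counts in both libraries, as had Adgra3 and Adgrg2.

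Batf3 (ENSMUSG00000026630, chromosome 1, 191097847 to 191108945, plus strand) encodes a basic leucine zipper factor that pairs with JUN proteins and acts with IRF4 or IRF8. It measured 9.32 TPM (replicate 1) and 12.01 TPM (replicate 2), with a mean of 10.7 ± 1.90 TPM (SD, n = 2). Replicate 2 was higher, and the bounds of 8.63 to 10.1 TPM and 11.2 to 12.9 TPM were apart. The counts were 637 and 913 with annotation release M4, but 478 and 717 with M2 and M3, where the levels were 8.03 and 11.2 TPM (M2). Batf3-201, the single protein-coding transcript, with 354 coding bases in 3 exons, held 87.3% in replicate 1 and 86.6% in replicate 2. The 4 transcripts without a coding region held the other 12.7% and 13.4%. Batf3-205, the largest of these, was at 0.75 TPM in both libraries.

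The factors that BATF3 works with differed in level. Of 16 genes listed beside Batf3, which are BATF, JUN, FOS, ATF and IRF genes with Maf, Bcl6 and Zeb2, 9 reached 1 TPM in both libraries, and the list median with Batf3 was 4.17 TPM. Junb, a JUN subunit, was at 53.6 and 80.4 TPM and Jund at 38.5 and 37.0 TPM. Batf, the relative of Batf3 that is needed for class switching in B cells, was at 33.6 and 32.5 TPM. Irf4 was at 33.0 and 27.2 TPM and Irf8 at 3.95 and 4.39 TPM, so of the IRF partners Irf4 was the higher. Atf3, a stress-induced relative, was at 3.31 and 7.88 TPM and was called higher in replicate 2 by the test on counts described with the library ratios. The 4 FOS genes were all under 0.1 TPM in both libraries, and Batf2 had 0 counts in both.

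Zbtb46 (ENSMUSG00000027583, chromosome 2, 181387762 to 181459426, minus strand) encodes a zinc finger factor with a BTB domain. It measured 1.01 TPM (replicate 1) and 2.31 TPM (replicate 2), with a mean of 1.66 ± 0.919 TPM (SD, n = 2) over 333 and 790 counts. The libraries were far apart, with bounds of 0.907 to 1.19 TPM and 2.14 to 2.54 TPM. Replicate 1 passed the threshold only barely, and its lower bound lay under 1 TPM.

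Zbtb46 reads were assigned mainly to a long and a short coding form. The long form, 1800 coding bases in Zbtb46-201 and Zbtb46-205, summed to 0.36 TPM (replicate 1) and 0.95 TPM (replicate 2). The short form, 1302 coding bases in Zbtb46-202, was at 0.58 and 1.31 TPM. It held 57.4% ± 0.672 of Zbtb46 TPM, but 47.6% of expected counts, where the long form held 48.2%. Expected counts are not corrected for length, and Zbtb46-201 has 5309 bases against 2577 for Zbtb46-202. By TPM, which is corrected, the short form was the higher in both libraries. Zbtb46-203, annotated as a retained intron, held 6.65% and 2.12%. Both coding forms were higher in replicate 2.

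The forms part after their second coding exon, and the sequences are shown because they decide whether the zinc fingers are encoded. The short form reads on for 80 bases past the splice site used by the long form (chr2:181411616-181411695, minus strand, GRCm38) and then stops. The long form instead is spliced to an exon of 176 bases (chr2:181395450-181395625). Capitals mark codons that match a classical zinc finger, defined as 2 cysteines 2 residues apart, 12 further residues, and 2 histidines 3 to 5 residues apart. The translated long form held 2 such matches and the short form 0, and the second match runs into the next exon. The 80 extra bases of the short form are intron in the long form. Total RNA can hold unspliced transcripts, and whether their reads add to the share of the short form was not tested.
Short form, end of the coding sequence: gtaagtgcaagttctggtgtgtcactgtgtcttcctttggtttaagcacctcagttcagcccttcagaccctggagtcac
Long form, zinc finger exon: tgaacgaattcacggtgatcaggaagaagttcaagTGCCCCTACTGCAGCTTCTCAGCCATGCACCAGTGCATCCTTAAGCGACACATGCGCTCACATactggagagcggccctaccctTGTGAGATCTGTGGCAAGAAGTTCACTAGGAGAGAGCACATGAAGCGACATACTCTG

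Markers that define conventional dendritic cells beside Batf3 and Zbtb46 were mixed. Of these 15 other genes of the list, 5 reached 1 TPM in both libraries and 8 were under 0.1 TPM in both, and the median of the whole list was 0.185 TPM. Wdfy4, a gene needed for cross-presentation, was at 35.1 and 33.5 TPM, Sirpa, a surface receptor of myeloid cells, at 6.32 and 6.80 TPM, and Nfil3, a transcription factor, at 5.88 and 7.17 TPM. Several other surface markers were low. Xcr1, the chemokine receptor of the BATF3-dependent subset, was at 0.22 and 0.45 TPM, and Flt3, the receptor for a dendritic cell growth factor, was at 0.18 and 0.19 TPM. Itgax (CD11c) was at 0.05 and 0.02 TPM, and Clec9a, Cadm1 and Cd209a had 0 counts in both libraries. Of 5 plasmacytoid dendritic cell genes, Bst2, Tcf4 and Pacsin1 reached 1 TPM in both libraries. Bst2 was at 98.6 and 103 TPM, Tcf4 at 25.5 and 23.9 TPM, and Pacsin1 at 2.55 and 2.96 TPM. Siglech, a surface lectin of these cells, was at 0.02 TPM in both libraries.

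Other BTB zinc finger factors were widely expressed. Of 21 such genes beside Zbtb46, 16 reached 1 TPM in both libraries. The median with Zbtb46 was 1.86 TPM, close to the mean of Zbtb46 itself. Zbtb32, a repressor of activated lymphocytes, was at 43.8 and 43.0 TPM, Zbtb38, a methyl-DNA binding factor, at 20.4 and 24.8 TPM, and Zbtb20, a factor of B-1 and plasma cells, at 14.9 and 14.3 TPM. Bcl6, the germinal centre repressor, was the lowest of the list at 0.04 and 0.06 TPM.

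Pecam1 (ENSMUSG00000020717, chromosome 11, 106654217 to 106750628, minus strand) encodes a receptor of the immunoglobulin superfamily. It measured 4.64 TPM (replicate 1) and 5.35 TPM (replicate 2), with a mean of 4.99 ± 0.502 TPM (SD, n = 2) over 1483 and 1888 counts. Replicate 2 was slightly higher, with bounds of 4.44 to 5.09 TPM and 5.16 to 5.80 TPM that do not overlap. Pecam1, like Zbtb46, was spread over several coding transcripts. Its 6 protein-coding transcripts held 95.3% and 97.2% of the gene. Pecam1-203 held 42.8% and 42.1%, Pecam1-201 held 25.6% and 23.5%, Pecam1-202 held 17.8% and 16.6%, and Pecam1-207 held 7.59% and 15.0%.

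These forms differ mainly at the 3′ end of the coding region, which encodes the tail inside the cell. In PECAM1 this tail carries a pair of tyrosine motifs that recruit the phosphatases SHP-1 and SHP-2. The exons are shown because the forms differ in the motifs that they encode. Capitals mark the codons of a match to a tyrosine motif. An inhibitory motif (ITIM) was defined as isoleucine, leucine, valine or serine, any residue, tyrosine, any 2 residues, and isoleucine, leucine or valine. A switch motif (ITSM) has threonine first, and valine or isoleucine last. The translated Pecam1-201 held 3 inhibitory matches, 1 of them in the exon shown, and 1 switch match, while Pecam1-203 held 3 and 0; a match describes letters, not a working site.
Exon of 63 bases in all 5 full-length coding forms (chr11:106679549-106679611, minus strand, GRCm38), with an inhibitory motif: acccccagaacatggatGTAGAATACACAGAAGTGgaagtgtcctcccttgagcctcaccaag
Exon of 57 bases (chr11:106671742-106671798), with a switch motif: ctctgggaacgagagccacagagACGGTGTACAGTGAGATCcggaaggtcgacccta
Last coding bases of Pecam1-202 and Pecam1-203 (chr11:106655146-106655162): agaacggaaggctccct
Last coding bases of Pecam1-201 (chr11:106661960-106662024): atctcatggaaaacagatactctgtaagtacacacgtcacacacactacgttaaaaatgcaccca

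Forms with and without the 57-base exon were both well represented. The 4 full-length coding transcripts that hold it summed to 2.43 TPM (replicate 1) and 2.95 TPM (replicate 2), or 53.8% ± 1.96 of Pecam1 TPM (SD, n = 2). Pecam1-203, the single full-length form without it, was at 1.99 and 2.25 TPM. By expected counts the shares were 54.1% with the exon and 44.8% without it. The exon has a length divisible by 3, so skipping it removes the switch motif match and keeps the reading frame. Pecam1-207 lacks another exon, of 303 bases, in the extracellular part (chr11:106697052-106697354). It measured 0.35 TPM (replicate 1) and 0.80 TPM (replicate 2), with bounds of 0.0898 to 0.539 TPM and 0.528 to 1.05 TPM that overlap. Short reads assign transcripts of a gene indirectly, so all of these shares are estimates. The end of Pecam1-201 also reads on past a splice site that Pecam1-204 and Pecam1-207 use. Whether reads of unspliced RNA add to the share of Pecam1-201 was not tested.

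**Figure D2:**
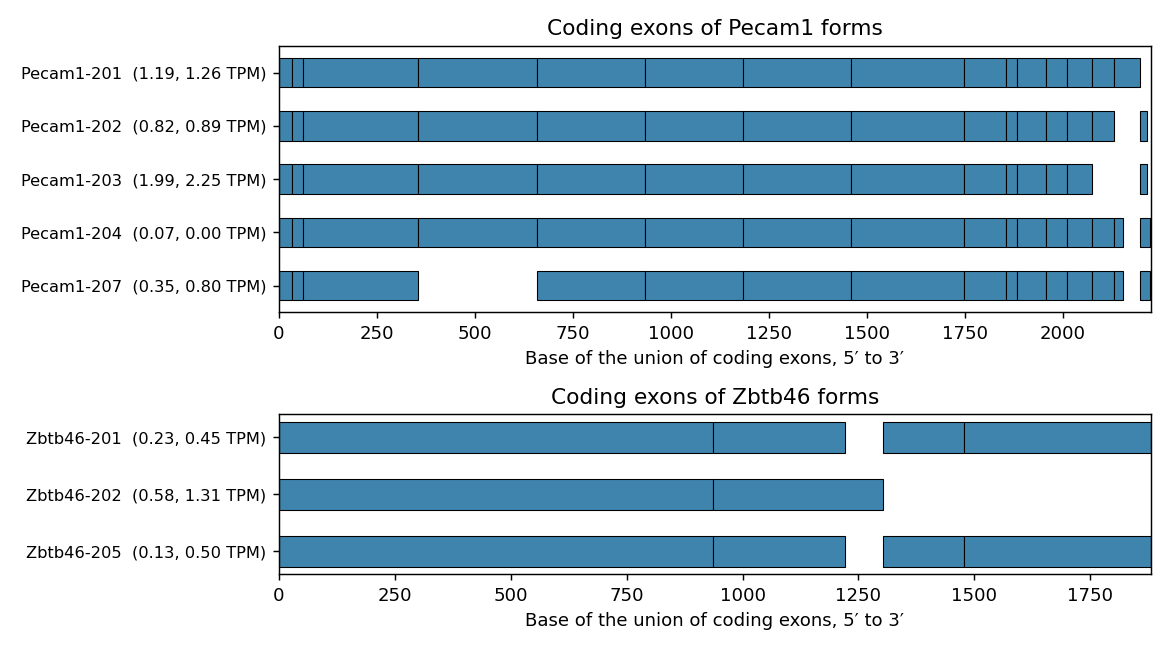
Coding exons of the full-length Pecam1 forms and of the Zbtb46 forms with more than 1 coding exon, drawn to scale along the union of their coding bases from 5′ to 3′, with the TPM of replicates 1 and 2 after each name. Pecam1-203 lacks the 57-base exon near the end, Pecam1-207 lacks 303 bases near the start, and Zbtb46-202 ends where the zinc finger exons of the other forms begin.

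Other endothelial and platelet markers were low. Of the 15 other genes of this list 0 reached 1 TPM in both libraries and 11 were under 0.1 TPM in both, and the whole list had a median of 0.0175 TPM. Itga2b, the platelet integrin chain, was next at 0.54 and 0.71 TPM. Cdh5, the cadherin that defines endothelial junctions, was at 0.03 and 0.07 TPM, and Emcn, Cldn5 and Gp9 had 0 counts. These 15 genes summed to 0.84 and 1.15 TPM. Genes listed for PECAM1 signalling or for leukocyte adhesion were higher. Of 14 such genes 9 reached 1 TPM in both libraries, led by Ptpn6 (SHP-1) at 68.4 and 59.0 TPM, Icam1, an adhesion molecule, at 28.8 and 46.3 TPM, and Cd47 at 23.5 and 28.9 TPM. Ptpn11 (SHP-2) was at 12.6 and 10.6 TPM. Cd38, the product of which has been described as a PECAM1 ligand, was at 0.71 and 0.76 TPM, and Jam2 and Jam3 were lowest.

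Epcam (ENSMUSG00000045394, chromosome 17, 87635979 to 87651129, plus strand) measured 2.73 TPM (replicate 1) and 1.00 TPM (replicate 2). The mean was 1.86 ± 1.22 TPM (SD, n = 2) over 568 and 227 counts. It was the only member that was lower in replicate 2, and the bounds of 2.50 to 2.94 TPM and 0.879 to 1.14 TPM were far apart. Replicate 2 was at the threshold, and its lower bound lay under 1 TPM. Release M4 lists a single transcript, Epcam-201, which is protein-coding with 945 coding bases and so held 100% by construction.

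Epithelial genes beside Epcam were mostly low. Of the 14 other genes of this list, 1 reached 1 TPM in both libraries and 12 were under 0.1 TPM in both, and the whole list had a median of 0.015 TPM. The detected gene was Elf3, an epithelial transcription factor, at 6.29 and 6.92 TPM, above Epcam in both libraries. Ocln, a tight junction protein, was at 0.49 and 0.54 TPM. Cdh1, the epithelial cadherin, was at 0.00 and 0.04 TPM, Krt8 and Krt18, keratins of simple epithelia, were at 0.01 to 0.05 TPM, and Krt14, Cldn3 and Cldn7 had 0 counts in both libraries.

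The partners of EPCAM at the membrane and the proteases that cut it differed in level. Cldn7, its claudin partner, had 0 counts, which allows up to 0.0408 TPM (replicate 1) and 0.0377 TPM (replicate 2). The cleavage machinery was expressed. Adam17, the sheddase, was at 11.3 TPM in both libraries, and the gamma-secretase genes Psen2, Ncstn, Aph1a and Psenen lay between 5.18 and 14.4 TPM. Ctnnb1 (beta-catenin) was at 39.0 and 37.4 TPM, and Cd44 was at 29.4 and 36.6 TPM. In all 13 of the 19 genes of this group other than Epcam reached 1 TPM in both libraries, and the median with Epcam was 4.17 TPM.

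**Figure D3:**
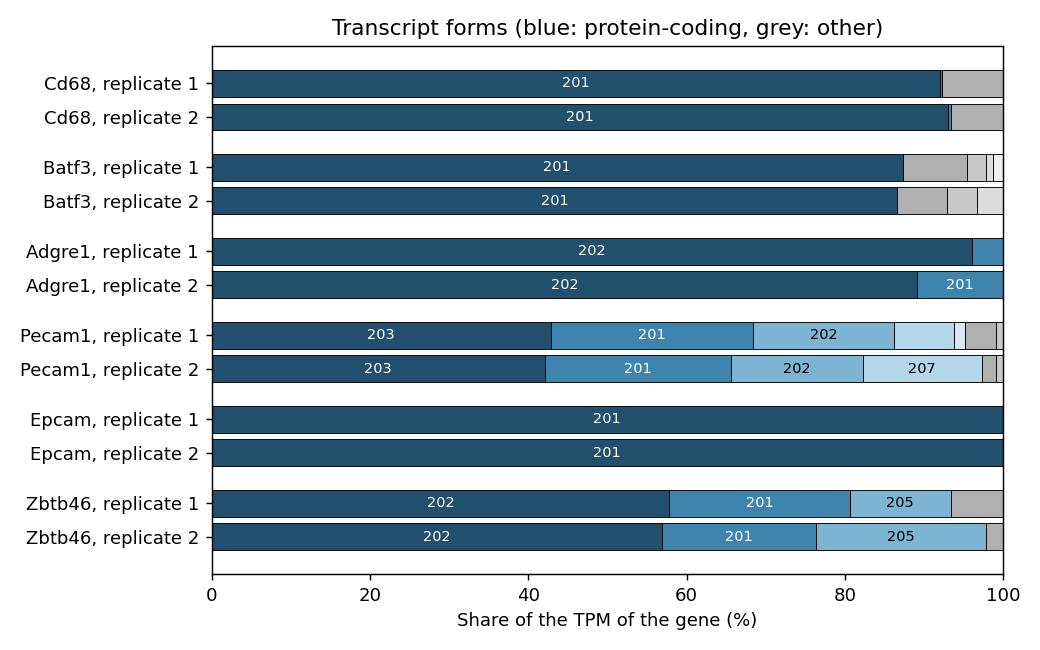
Share (%) of each transcript in the TPM of its gene, per library, with protein-coding transcripts in shades of blue, other transcripts in grey, and the number of each transcript at 10% or more printed on its bar. One coding form dominates in Cd68, Batf3, Adgre1 and Epcam, while Pecam1 and Zbtb46 are split between coding forms.

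Over all members, protein-coding transcripts held at least 86.6% of the TPM of the gene in each library, the lowest being Batf3 in replicate 2. The table of M4 lists 24 transcripts of these genes, and 10 of them reached 10% of their gene in both libraries. The deposited posterior SD of the count was 0 for each member in both libraries, so in the authors' model no reads were shared between a member and another gene. Zbtb46 alone overlaps another annotated gene, the small nuclear RNA gene Gm22708, which was at 0 TPM. Without overlap, the pseudogene Slc2a4rg-ps lies 176 bases from Zbtb46 on the other strand. It measured 1.14 TPM (replicate 1) and 1.10 TPM (replicate 2). Milr1, a protein-coding gene, lies 598 bases from Pecam1 on the other strand, also without overlap. Its level was 6.85 TPM (replicate 1) and 5.4 TPM (replicate 2).

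Levels in the libraries were then compared. All 6 members passed the filter of at least 10 counts over both libraries. With an exact conditional binomial test on counts over 15438 genes (Benjamini-Hochberg adjusted, ratio of at least 2), 2 of 6 members were called, against 4.77% of all genes tested and 0.951% of genes at 1 TPM or more in both libraries. Zbtb46 was called higher in replicate 2 (3.71% of genes were), and Epcam was called lower (1.07% of genes were). The log2 ratio of replicate 2 over replicate 1 was 1.15 for Zbtb46 (95% counting interval 0.96 to 1.34). It was -1.42 for Epcam (-1.65 to -1.20), a 2.68-fold higher level in replicate 1. The test accounts for counting error alone and sets 1 library against another, not conditions, and the threshold on level limits how far members near it could be apart.

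The other members differed by less. The log2 ratio was 0.48 for Adgre1 (0.39 to 0.58), 0.42 for Batf3 (0.27 to 0.57), 0.25 for Pecam1 (0.15 to 0.35) and 0.11 for Cd68 (0.02 to 0.19). By the adjusted p alone all 6 members passed, but so did 50.4% of all genes. Deposited bounds of the libraries were apart for 5 of the 6, all but Cd68, against 48.5% of genes at 1 TPM or more in both libraries. In the dendritic cell list Xcr1 was also called higher in replicate 2, and so were Marco in the macrophage list and Cdh5 in the endothelial list, all under 0.5 TPM.

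**Figure D4:**
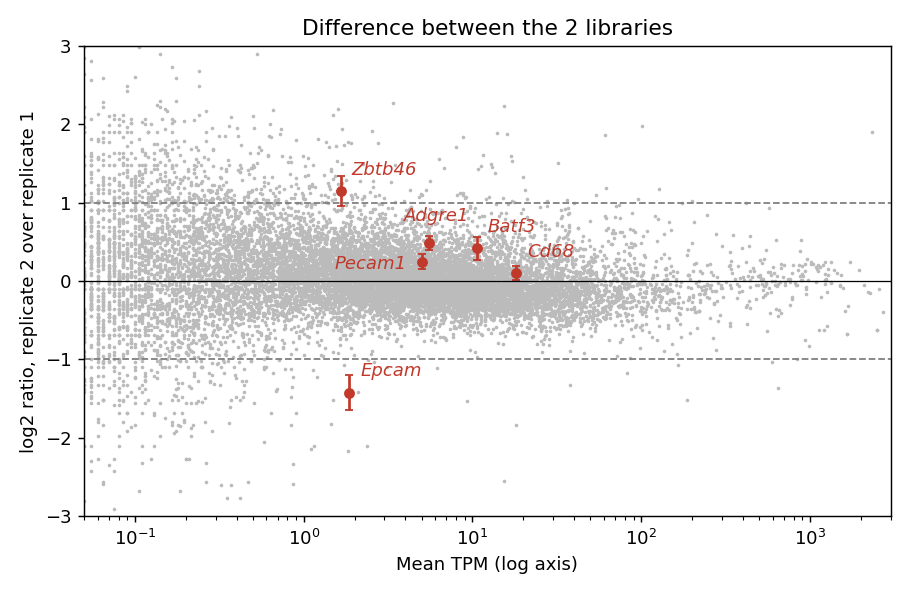
The log2 ratio of replicate 2 over replicate 1 against the mean TPM (log axis) for all genes tested (grey) and the 6 members (red, with 95% counting intervals), and dashed lines at a ratio of 2 in each direction. Zbtb46 lies above the upper line and Epcam below the lower line, the other members lie between 0.11 and 0.48, and genes beyond the axes are not drawn.

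Seen against wider lists, most markers of other cell types were under 1 TPM. Of 87 markers in 7 lists, 18 reached 1 TPM in both libraries, among them the 6 members, which were chosen by this threshold. Over all genes 22.1% reached it, and over protein-coding genes 41.4%, so the count is given as a description. Of the 87, 59 were under 0.1 TPM in both libraries and 24 had 0 counts in both. A count of 0 allows at most 0.00737 to 0.116 TPM depending on transcript length. The 12 detected markers that are not members were Spi1, Wdfy4, Sirpa, Nfil3, Irf8, Id2, Bst2, Tcf4, Pacsin1, Elf3, Cd3g and Cd3d. Of these Spi1, Irf8, Tcf4 and Bst2 are examples also known in B cells, and whether the others are was not examined. In the T cell list Cd3g was at 2.69 and 3.04 TPM and Cd3d at 1.14 and 1.45 TPM, while Cd3e, of the same receptor complex, and Thy1 had 0 counts. In the granulocyte and mast cell list 0 of 8 genes reached 1 TPM, and S100a8, S100a9 and Elane had 0 counts. Just inside the threshold by the lower library were Epcam at 1.00 TPM and Zbtb46 at 1.01 TPM, and just outside were Itga2b at 0.54 TPM and Ocln at 0.49 TPM. In bulk RNA, a low level in every cell and a high level in few cells cannot be told apart.

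**Figure D5:**
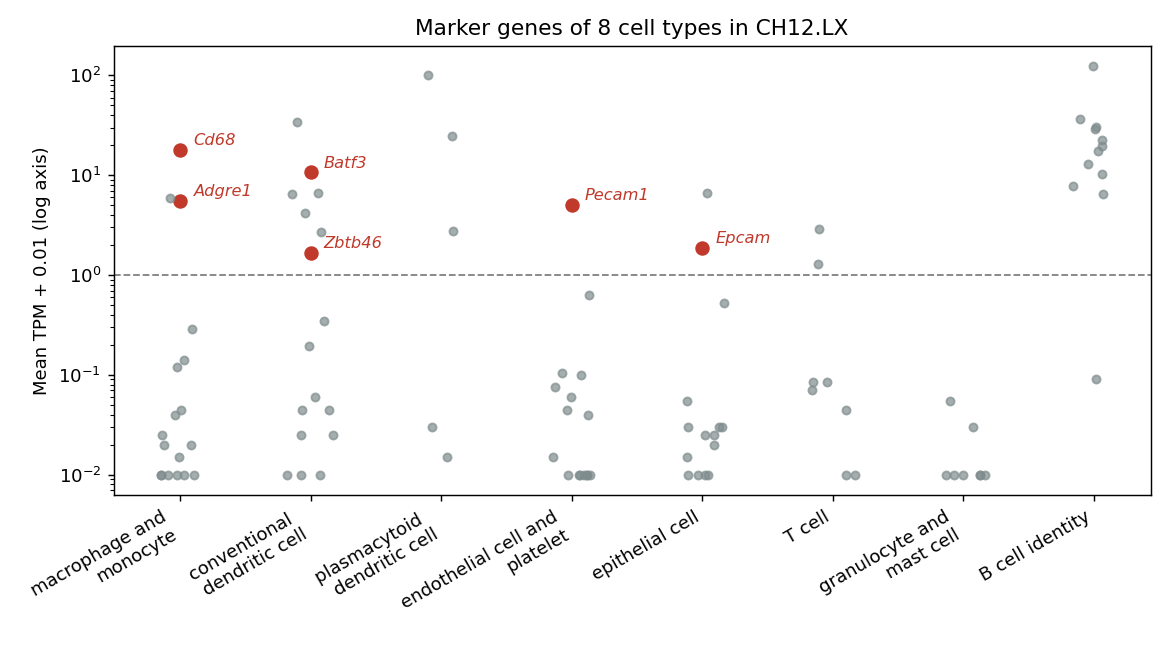
Mean TPM plus 0.01 (log axis) over the 2 libraries for each gene of 8 cell type lists, with the 6 members in red and a dashed line at 1 TPM. Pecam1 stands alone above the line in the endothelial list, Epcam has Elf3 above it in the epithelial list, and 11 of 12 B cell identity genes lie above the line.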

How the data were processed

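Each library has gene tables for annotation releases M2, M3 and M4 and an M4 transcript table, on mm10, per the labels and manifests; the sources used here do not name an aligner, quantifier or strand setting. Deposited expected counts, TPM, posterior mean TPM, transcript percent shares and credibility bounds (level not stated) are the authors' values, per the file headers. The M4 tables were the main ones. Of 69691 rows, 26345 name no Ensembl gene and were left out. Symbols, biotypes, exons and sequences came from GENCODE M21 (GRCm38), matched without version: 42462 of 43346 genes matched, and 23 of 24 member transcripts had the same length in M21 (not Adgre1-202).

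The members and gene lists were chosen with earlier results of these data known. Levels are TPM, mean and SD over 2 libraries. Expected counts were rounded and compared by a two-sided exact conditional binomial test, smaller tail doubled, with TMM effective library sizes (edgeR 4.0.16, R 4.3.3). Genes had at least 10 counts, and calls an adjusted p of 0.05 and a ratio of 2. The test was tried on simulated counts that held counting error only. Such counts do not show how it behaves where replicates differ by more than that. One library a side leaves no residual spread, so edgeR's quasi-likelihood test was not run. A count of 0 was taken to allow 3 counts; such limits and intervals cover counting error only. Named genes were the members, up to 4 highest detected and 3 lowest of each list, and those nearest the threshold; some that this rule takes are not printed, and others (among them Csf1r, Tfeb, Xcr1, Flt3, Itgax, Atf3, Cdh5, Cdh1, Krt8, Krt18, Ptpn11, Cd38, Adam17, Marco and Eif4a1) were chosen after their values were seen. DESeq2 1.42.0 size factors were an alternative. Python 3.11.15, numpy 2.4.6, pandas 2.3.3, scipy 1.17.1 and matplotlib 3.10.9 were used. Some listed genes are not reported here by name.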

Additional observations from a re-analysis of the deposited data

How the results depend on the processing

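All 6 members stayed at 1 TPM or more in both libraries with M2, M3 and posterior mean TPM. Either library alone could not change this, because members were chosen for passing in both. Nor could the protein-coding scale, which raises every level. On the protein-coding scale the mean levels were 74.3 TPM for Cd68, 43.8 for Batf3, 22.6 for Adgre1, 20.5 for Pecam1, 7.65 for Epcam and 6.83 for Zbtb46, by construction of that scale, and 21 list markers rather than 18 reached 1 TPM. Cd68 was at 19.4 TPM with M2 and 19.3 TPM with M3, over the same 1990 and 2294 counts as with M4. The cause was not tested. Leaving out each library gave 17.6 to 18.6 TPM for Cd68, 9.32 to 12.01 for Batf3, 4.63 to 6.38 for Adgre1, 4.64 to 5.35 for Pecam1, 1.00 to 2.73 for Epcam and 1.01 to 2.31 for Zbtb46, so the means of Epcam and Zbtb46 rest on libraries that differ by more than 2 times. Without the ratio criterion, 7779 genes were called rather than 737, 3898 higher rather than 572 and 3881 lower rather than 165, and 6 members rather than 2. Calls of Epcam and Zbtb46 held with DESeq2 size factors, no low-count filter, M2 and M3. By expected counts the share of Zbtb46-202 was 47.6% rather than 57.4%, and that of Zbtb46-201 37.3% rather than 21.1%. With 227 counts at its lowest, Epcam in replicate 2 has the least depth among the members. No paired analysis was possible because there is a single group.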
